A study of Mus musculus with 15 samples.

Results

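The actin cytoskeleton and contractile genes described here are 38 genes given by name, and all 38 were found among the 25700 gene identifiers of the mouse count tables, 2 of them (Mkl1 and Mkl2) through an older symbol. They code for actins, proteins that lie along the actin filament, non-muscle myosin II and its kinase, cross-linkers and proteins of the adhesion plaque, proteins of filament turnover, intermediate filaments, and the transcription factor SRF with its coactivators and partners. The choosing rule is this list of names and uses no measured value, but the list was drawn up with earlier results of these data known. Of the 38, 37 passed the filter on low counts and were tested; Cnn1, calponin 1, did not, with 2 to 10 counts per group.

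Monomeric actin polymerises into filaments that tropomyosins, calponins, transgelins and caldesmon coat and that myosin II pulls into stress fibres, which end at focal adhesions through talin, vinculin, zyxin and paxillin. Monomeric actin also binds the MRTF coactivators (coded by Mkl1 and Mkl2). Once filaments form and free actin falls, MRTF enters the nucleus and, with SRF, drives many genes of the same cytoskeleton through a short promoter element, the CArG box. Fibroblast-like preadipocytes are known for stress fibres, which give way to a thin cortical actin layer as the cells round up and fill with lipid.

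RNA was sequenced from 3T3-L1, a mouse preadipocyte line, in 5 groups of 3 libraries. Wild-type (WT) cells at day 0 were confluent cultures at the start of differentiation, and WT cells at day 6 had received dexamethasone, IBMX and insulin, then insulin alone, then serum medium. The MIGA2-KO cells, which the labels call depleted of the outer mitochondrial membrane protein MIGA2 (mitoguardin 2), were taken at the same days, and MIGA2-GFP cells, labelled as overexpressing a fusion of MIGA2 with green fluorescent protein, at day 6 only. All groups share the parental line, and the day 6 groups share the differentiation medium. The labels do not say whether the MIGA2-KO and MIGA2-GFP lines are clones or pools, or whether replicates were separate cultures, so that a p-value covers the spread among these libraries, which may be technical. The comparisons ask how these genes change during differentiation and how they differ when MIGA2 is depleted or overexpressed.

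Library totals ran from 10748668 to 26003871 counts. Adipocyte markers (6 genes, Adipoq, Plin1 and Fabp4 among them) summed to 32.2 to 49.8 CPM (counts scaled to a common library size by TMM factors) in WT at day 0, to 29565 to 42986 in WT at day 6, to 5824 to 9258 in the day 6 libraries of MIGA2-KO and to 19399 to 21102 in those of MIGA2-GFP. Fibroblast and preadipocyte markers (6 genes, such as Col1a1) summed to 21189 to 27408 CPM in WT at day 0, to 4994 to 5444 in WT at day 6, to 11739 to 19554 in MIGA2-KO and to 7107 to 7423 in MIGA2-GFP. The smooth muscle markers Myocd and Kcnmb1 were at 0 in all groups, and the skeletal muscle marker Myod1 and the macrophage marker Ptprc were at 0 as well. Other genes of these lists had counts. Over all groups the 8 smooth muscle markers summed to 13.7 to 40.2 CPM and the 8 skeletal muscle markers to 10.35 to 76.98. The 5 macrophage markers summed to 0.971 to 5.42 CPM. The smooth muscle list holds the members Lmod1, Actg2 and Cnn1, and the skeletal muscle list holds Des. In bulk RNA, fewer cells of a type and less RNA per cell cannot be told apart. The level of Miga2 itself bore out the labels in only some libraries. At day 0 it was at 17.2, 21.4 and 22.6 CPM in MIGA2-KO and at 15.6, 17.8 and 13.6 in WT, so it was not lower in the cells labelled depleted. At day 6 it was at 74.5 and 70.0 CPM in MIGA2-KO replicates 2 and 3, below the 145, 160 and 182 of WT, but at 926 in the library labelled MIGA2-KO day 6 replicate 1. In MIGA2-GFP it was at 166, 155 and 159 CPM, within the WT range. Protein levels cannot be read from these counts, and the group names, with every direction drawn from them, are those of the labels. Many results on MIGA2-KO at day 6 are therefore given with and without the library at 926 CPM. Those given as a single value include that library unless stated. MIGA2-KO day 6 replicate 3 alone held skeletal muscle mRNAs, with 260 counts of Acta1 and 186 of Ckm, against 5 and 0 in each of the other 2 libraries of its group. Its desmin (Des) level was 15.4 CPM, beside 15.2 in replicate 2. WT day 0 replicate 1, WT day 6 replicate 1 and the library labelled MIGA2-KO day 6 replicate 1 stood apart from their groups, with correlations to the other libraries of 0.966 to 0.976.

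The CArG box is the element that SRF binds, so promoters of the set that hold one are shown. Windows of 300 bases from RefSeq (GRCm38.p6), from 250 before to 50 after a gene's start, were available for 34 of the 38 members, the others being Actg2, Actb, Tagln and Pxn. A CArG box, searched on both strands, lay in the window of 8 of the 34 (23.5%): Actg1, Cnn2, Myl6, Myl9, Vcl, Srf, Fhl1 and Fhl2. The same element was found for 1.81% of 27025 genes with such windows. The 250 bases before the start are given for 7 of these genes, each read on the gene's strand, with the CArG boxes in capitals. The first 4 fell in WT differentiation, Srf and Vcl did not pass the test there, and Fhl1 rose, so that genes with the same element stand on all sides. Their positions are chr11:120348496-120348745 on the minus strand for Actg1, chr10:79988350-79988599 on the plus strand for Cnn2, chr2:156775214-156775463 on the plus strand for Myl9, chr1:43163962-43164211 on the minus strand for a downstream start of Fhl2, chr17:46556163-46556412 on the minus strand for Srf, chr14:20929148-20929397 on the plus strand for Vcl, and chrX:56779433-56779682 on the plus strand for Fhl1.
Actg1: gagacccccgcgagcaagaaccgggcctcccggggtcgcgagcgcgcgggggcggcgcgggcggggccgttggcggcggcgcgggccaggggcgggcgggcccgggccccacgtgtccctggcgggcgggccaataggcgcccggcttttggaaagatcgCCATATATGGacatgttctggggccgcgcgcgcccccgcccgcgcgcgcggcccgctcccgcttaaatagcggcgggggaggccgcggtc
Cnn2: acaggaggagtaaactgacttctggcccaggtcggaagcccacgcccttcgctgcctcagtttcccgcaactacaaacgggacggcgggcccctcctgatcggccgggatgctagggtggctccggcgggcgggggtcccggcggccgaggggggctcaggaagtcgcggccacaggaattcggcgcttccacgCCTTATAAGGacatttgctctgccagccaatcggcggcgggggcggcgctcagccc
Myl9: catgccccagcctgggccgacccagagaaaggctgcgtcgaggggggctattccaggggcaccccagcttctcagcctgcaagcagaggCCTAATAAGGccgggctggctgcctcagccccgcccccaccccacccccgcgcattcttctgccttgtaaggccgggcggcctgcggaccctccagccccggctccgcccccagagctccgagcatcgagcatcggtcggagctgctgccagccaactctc
Fhl2: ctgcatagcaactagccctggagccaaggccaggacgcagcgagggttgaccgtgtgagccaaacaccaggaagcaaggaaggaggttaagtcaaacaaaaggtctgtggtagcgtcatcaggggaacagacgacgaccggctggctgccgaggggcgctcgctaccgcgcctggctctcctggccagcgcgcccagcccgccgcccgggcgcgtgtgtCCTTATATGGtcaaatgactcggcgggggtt
Srf: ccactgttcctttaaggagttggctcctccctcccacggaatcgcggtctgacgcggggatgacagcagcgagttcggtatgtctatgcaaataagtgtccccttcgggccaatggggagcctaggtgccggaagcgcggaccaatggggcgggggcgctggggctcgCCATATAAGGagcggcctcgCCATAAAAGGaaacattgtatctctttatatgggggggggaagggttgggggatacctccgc
Vcl: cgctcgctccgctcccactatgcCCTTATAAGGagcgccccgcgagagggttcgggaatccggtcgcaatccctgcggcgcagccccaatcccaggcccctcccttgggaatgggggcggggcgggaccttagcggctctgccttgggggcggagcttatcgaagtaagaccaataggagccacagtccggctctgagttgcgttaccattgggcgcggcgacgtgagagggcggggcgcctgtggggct
Fhl1: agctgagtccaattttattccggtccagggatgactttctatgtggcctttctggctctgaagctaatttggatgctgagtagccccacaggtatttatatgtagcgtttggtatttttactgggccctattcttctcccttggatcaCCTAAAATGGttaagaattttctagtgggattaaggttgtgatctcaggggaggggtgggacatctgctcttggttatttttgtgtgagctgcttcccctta
The box of Actg1 began 90 bases before the start, that of Cnn2 56, that of Myl9 161, that of Fhl2 31, and that of Vcl 227 bases before it. That of Fhl1 began 102 bases before a start that also lies downstream in its gene. The upstream start of Fhl2, not printed here, had a box 96 bases before it. Srf, which codes for the factor that binds the element, had 2 boxes, 82 and 62 bases before its start. The TEAD element CATTCC (both strands; its CC letters can be shared with a CArG box, and in Vcl, which alone held both, they lay apart) was in the windows of 13 of the 34 members (38.2%) and of 16.6% of all genes with windows. A match is a description of these letters and not a measured binding site.

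During WT differentiation most of the set fell. Between day 0 and day 6, 27 of the 37 tested members were lower and 5 were higher at an adjusted p under 0.05 (edgeR quasi-likelihood test, Benjamini-Hochberg over all 12279 genes tested), while 33.1% of all genes were called lower and 31.7% higher. The median log2 fold change of the members was -1.10, against -0.04 over all genes. The summed level of all 38 fell from 15718 ± 1605 CPM (SD, n = 3) to 8657 ± 822. All 4 actins and 9 of the 10 tested thin filament proteins were lower. The 6 fibroblast and preadipocyte markers were all called lower as well, with the summed levels given above, and their part in the result was not tested. The 5 that rose were Lmod1, Myh10, Vasp, Des and Fhl1. Among the 8 members with a CArG box, 4 were lower, 1 was higher and 3 did not pass the test, and among the 25 tested members with a window and no box 19 were lower and 4 were higher.

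**Figure D1:**
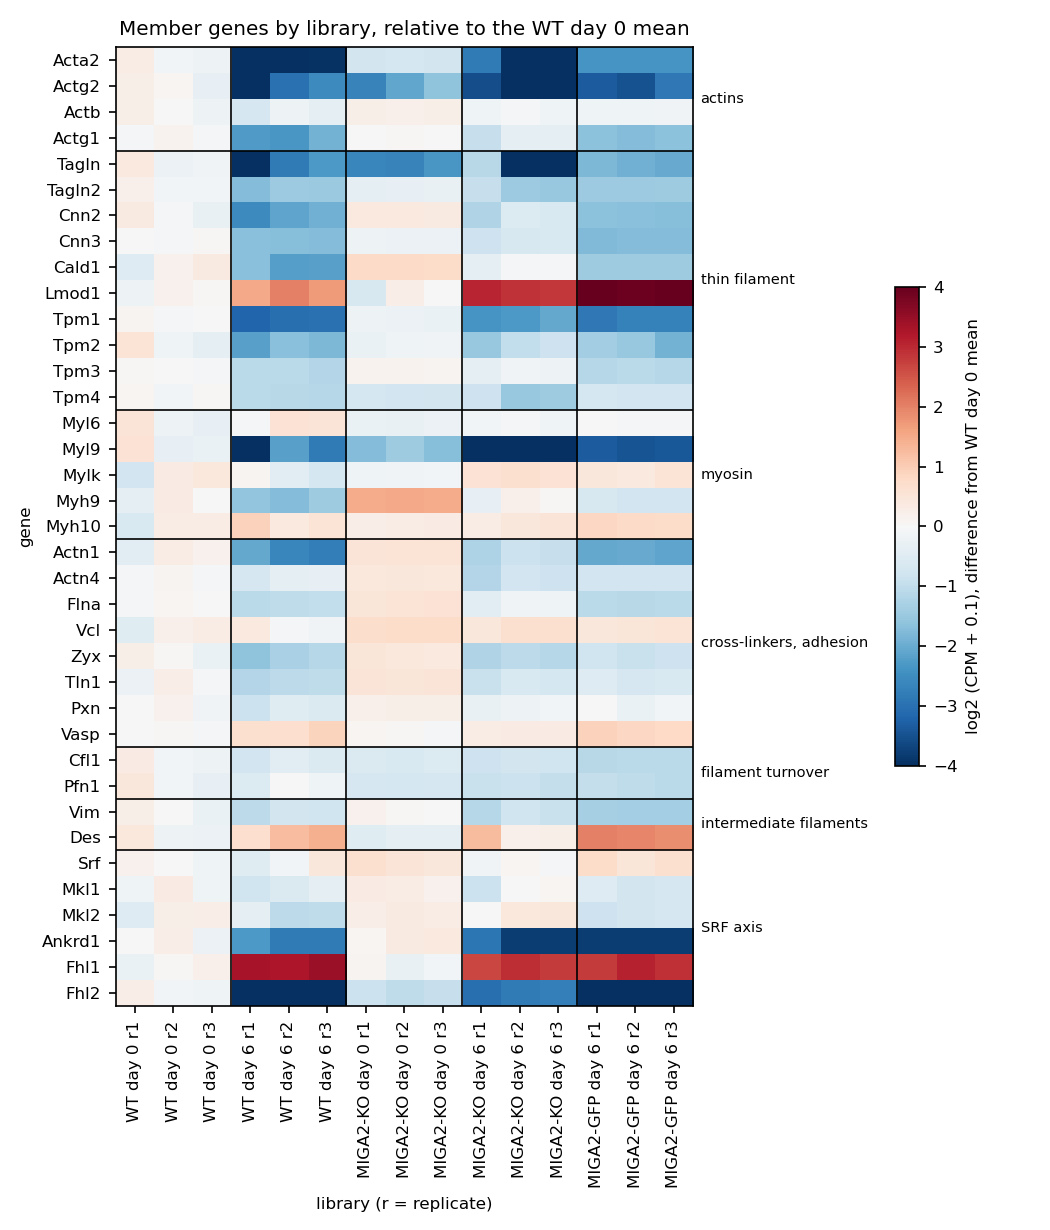
Heat map of the 37 tested members (rows, by role) in the 15 libraries (columns), as log2 of CPM + 0.1 minus the mean of the WT day 0 libraries; colours saturate at 4 in either direction. Most rows turn blue at day 6, and Lmod1, Des, Vasp and Fhl1 turn red.

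The actins differed in how far they fell. Acta2, the alpha-actin of smooth muscle and of stress fibres in myofibroblasts (chr19:34241090-34255590, GRCm38), was at 468, 355 and 333 CPM in the WT day 0 libraries and at 12.6, 14.0 and 24.8 at day 6. The groups did not overlap, and the log2 fold change was -4.49 ± 0.65 (SE; adjusted p = 2.48e-05). In MIGA2-KO it was at 230, 232 and 230 CPM at day 0. At day 6 it was at 53.9 CPM in the library labelled MIGA2-KO day 6 replicate 1, and at 5.44 and 6.27 in the others. Its log2 fold change over time in MIGA2-KO was -3.40 ± 0.62 (adjusted p = 4.04e-04), and -5.30 without that library. Actg2, the gamma-actin of smooth muscle, was low in every group and fell from 6.20 ± 1.21 to 0.611 ± 0.400 CPM in WT (log2 fold change -3.34 ± 0.42, adjusted p = 6.80e-06).

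The cytoplasmic actins separated from each other. Actb, beta-actin and often used as a loading reference, was at 2409, 1986 and 1745 CPM in WT at day 0 and at 1269, 1754 and 1570 at day 6. These values overlapped, and its log2 fold change of -0.42 ± 0.13 passed the test (adjusted p = 0.01) without doing so under every alternative. Actg1, gamma-actin (chr11:120345690-120348542), was at 349, 396 and 345 CPM in WT at day 0 and at 75.5, 71.7 and 96.7 at day 6, a log2 fold change of -2.16 ± 0.15 (adjusted p = 9.43e-09). In MIGA2-KO it went from 363, 373 and 364 CPM to 189, 278 and 278. All 3 day 6 libraries of MIGA2-KO were above all 3 of WT. Its change in MIGA2-KO was -0.56 ± 0.14 (-0.40 leaving out the library labelled MIGA2-KO day 6 replicate 1), and the time courses of the 2 lines differed by 1.60 ± 0.20 on the log2 scale (adjusted p = 5.81e-05; 1.76 without it). Of the distinct words of 50 bases in the Actg1 transcript, 56.7% also occur in other annotated transcripts, mostly pseudogenes, so how the authors' counting treated such reads bears on its level.

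Of the 10 tested thin filament proteins, 9 fell in WT and Lmod1 rose, with a median log2 fold change of -1.81 over the 10. Tagln, transgelin or SM22, a calponin-family protein of contractile cells, was at 19.7, 12.9 and 13.6 CPM in WT at day 0 and at 0.723, 2.05 and 3.01 at day 6 (log2 fold change -3.00 ± 0.69, adjusted p = 0.00147). Its more abundant relative Tagln2 went from 217 ± 28.6 to 73.7 ± 8.24 CPM (log2 fold change -1.56 ± 0.15). Tagln overlaps Pcsk7 on the opposite strand, and the labels do not give the strand setting of the counting. The calponins Cnn2 and Cnn3, which bind actin and slow its myosin, fell from 389 ± 90.2 to 84.9 ± 18.3 CPM and from 338 ± 10.4 to 104 ± 2.67 CPM. Cald1, caldesmon, which blocks myosin on the filament, was at 402, 650 and 738 CPM in WT at day 0 and at 182, 126 and 128 at day 6 (log2 fold change -2.04 ± 0.19, adjusted p = 3.11e-07).

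The 4 tropomyosins, rod-like dimers that set which proteins reach the filament, were all lower at day 6. Tpm1 was at 375, 329 and 342 CPM in WT at day 0 and at 38.7, 43.4 and 43.7 at day 6, a log2 fold change of -3.06 ± 0.11 (adjusted p = 7.16e-12). Tpm2 changed by -1.93 ± 0.25, Tpm3 by -1.11 ± 0.08 and Tpm4 by -1.12 ± 0.14 on the same scale. Tpm1 thus had the largest fall of the 4. For Tpm3, 62.4% of the 50-base words of its transcript are shared with other transcripts, so its level is uncertain. This share was 18.5% for Myl6, 16.4% for Cnn3, 14.2% for Actb, 12.1% for Tpm4 and 9.11% for Cfl1. Apart from Actg1, it was lower for the remaining members.

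Lmod1 moved the other way. Leiomodin 1, a nucleator of actin filaments in smooth muscle cells (chr1:135324807-135368065), was at 1.13, 1.49 and 1.37 CPM in WT at day 0 and at 3.98, 5.65 and 4.56 at day 6 (log2 fold change 1.81 ± 0.20, adjusted p = 1.98e-06). In MIGA2-KO it rose from 0.803, 1.61 and 1.30 CPM to 11.7, 10.6 and 10.1, and in MIGA2-GFP at day 6 it was at 22.6, 21.3 and 22.4. The day 6 groups did not overlap, in the order WT, MIGA2-KO, MIGA2-GFP. Lmod1 is itself 1 of the 8 smooth muscle markers, so their sum is not independent of it. This sum, which also holds Actg2 and Cnn1, was 13.7 to 18.4 CPM for the WT day 6 libraries. For the other day 6 groups it was 27.0 to 29.7 (MIGA2-KO) and 37.7 to 39.1 (MIGA2-GFP). Mean Lmod1 alone was 4.73, 10.8 and 22.1 CPM in these 3 groups. The WT day 0 libraries had sums of 32.9 to 40.2 CPM, so the sum fell during WT differentiation while Lmod1 rose. The MIGA2-KO day 0 libraries had sums of 22.5 to 23.4 CPM. Of these 8 markers 2 were at 0, and their part in the result was not tested.

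**Figure D2:**
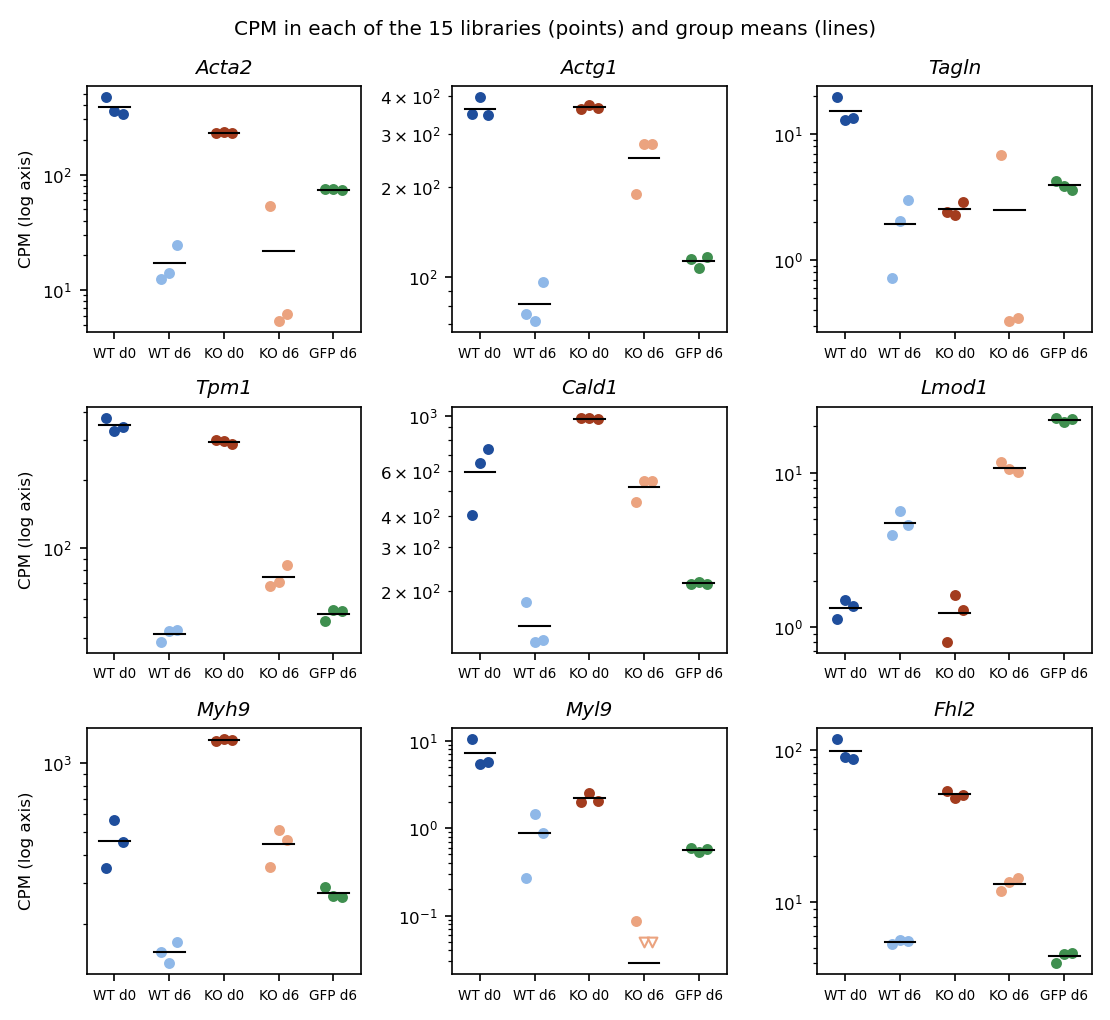
CPM (log axis) of 9 members in each library, by group (d0 and d6 are day 0 and day 6); points are libraries, lines are means of 3, and open triangles mark libraries with 0 counts, drawn at the lower edge. Tpm1 and Fhl2 fall between day 0 and day 6 in both lines, Lmod1 rises, and the library labelled MIGA2-KO day 6 replicate 1 lies above the other 2 of its group for Acta2 and Tagln.

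The myosin genes did not move as one. Myh9, the heavy chain of non-muscle myosin IIA, was at 350, 566 and 453 CPM in WT at day 0 and at 151, 135 and 166 at day 6 (log2 fold change -1.60 ± 0.16, adjusted p = 7.20e-07). Myh10, the heavy chain of non-muscle myosin IIB, rose from 83.4 ± 27.1 to 125 ± 23.8 CPM, a log2 fold change of 0.58 ± 0.19 (adjusted p = 0.0164), a call lost under some alternatives. Myl9, the regulatory light chain of contractile cells (chr2:156775420-156781658), was at 10.4, 5.46 and 5.76 CPM in WT at day 0 and at 0.271, 1.46 and 0.874 at day 6 (log2 fold change -3.05 ± 0.40). In MIGA2-KO its 3 day 6 libraries held 1 count in all, against 83 at day 0, a ratio of 77.0 with an exact 95% interval of 13.4 to 3076 that covers counting error only. Myl6, the essential light chain, and Mylk, the kinase that switches myosin on through that regulatory chain, did not pass the test in WT, with log2 fold changes of 0.33 ± 0.19 and -0.40 ± 0.25. Mylk rose in MIGA2-KO, from 59.3, 59.6 and 62.2 CPM to 98.7, 104 and 100.1 (log2 fold change 0.74 ± 0.25, adjusted p = 0.0248; 0.76 leaving out the library labelled MIGA2-KO day 6 replicate 1). This call was lost when any 1 of the MIGA2-KO day 0 libraries or MIGA2-KO day 6 replicate 2 was left out, with adjusted p from 0.0547 to 0.0666.

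Of the 8 cross-linkers and adhesion proteins, 6 were lower in WT at day 6, Vasp was higher and Vcl did not pass the test. The alpha-actinins, which bundle filaments, split: Actn1 changed by -2.47 ± 0.20 on the log2 scale (244, 404 and 373 CPM at day 0, and 80.8, 54.6 and 48.3 at day 6), and Actn4 by -0.45 ± 0.12 (284 ± 20.8 to 208 ± 25.8 CPM). Flna, filamin A, which links filaments into a network, went from 831 ± 48.1 to 408 ± 13.9 CPM. Zyx and Tln1, the adhesion proteins zyxin and talin 1, changed by -1.34 ± 0.13 and -1.10 ± 0.12, and Pxn, the adhesion scaffold paxillin, by -0.65 ± 0.12. Vcl, vinculin, which reinforces adhesions under load, was at 205 ± 54.6 and 212 ± 44.4 CPM, a log2 fold change of 0.05 ± 0.17. Vasp, which speeds filament growth at barbed ends, rose from 64.8, 66.3 and 60.5 CPM to 99.3, 102 and 119 (log2 fold change 0.74 ± 0.09, adjusted p = 4.71e-06). Tln1 and Vcl overlap Creb3 and Ap3m1 on the opposite strand.

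Of the turnover proteins 1 of 2 was lower in WT at day 6, and the intermediate filament genes went in opposite directions. Cfl1, cofilin 1, which severs filaments, fell from 1632, 1202 and 1131 CPM to 768, 977 and 876 in WT (log2 fold change -0.60 ± 0.13, adjusted p = 8.22e-04), and Pfn1, profilin 1, which loads actin monomers for growth, did not pass the test (-0.26 ± 0.17). Vim, vimentin, the intermediate filament of mesenchymal cells, went from 4937 ± 850 to 2693 ± 292 CPM in WT and from 5143 ± 311 to 2558 ± 289 in MIGA2-KO, with log2 fold changes of -0.87 ± 0.13 and -1.01 ± 0.13 (-0.92 in MIGA2-KO leaving out the library labelled MIGA2-KO day 6 replicate 1). Des, desmin, the intermediate filament of muscle, rose from 13.5 ± 3.58 to 29.4 ± 7.42 CPM in WT (log2 fold change 1.12 ± 0.27, adjusted p = 0.00188). Its change in MIGA2-KO was 1.05 ± 0.28, and 0.61 without that library, in which it was at 32.0 CPM against 15.2 and 15.4.

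Of the SRF group 4 of 6 were lower in WT at day 6 and 1 was higher. Srf, the transcription factor, was at 29.1 ± 3.41 CPM at day 0 and 28.9 ± 9.55 at day 6 in WT (log2 fold change -0.01 ± 0.18). The MRTF coactivators Mkl1 and Mkl2 changed by -0.59 ± 0.21 and -0.83 ± 0.21. Fhl2, a LIM protein that binds SRF (chr1:43123074-43196984), was at 117, 90.0 and 87.1 CPM in WT at day 0 and at 5.34, 5.65 and 5.53 at day 6, a log2 fold change of -4.15 ± 0.14 (adjusted p = 7.16e-12). Its relative Fhl1 rose from 0.707, 0.915 and 1.04 CPM to 9.49, 9.16 and 10.7 (log2 fold change 3.44 ± 0.18, adjusted p = 6.28e-10). Both genes have a CArG box in the sequences above, and they moved in opposite directions. Ankrd1, an ankyrin-repeat protein of muscle that responds to stretch, had 1.30 ± 0.242 CPM in WT at day 0 and 4 counts over the 3 libraries at day 6 (log2 fold change -3.29 ± 0.49, adjusted p = 5.89e-05).

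In MIGA2-KO cells many of the same members fell. Between day 0 and day 6, 24 members were lower and 5 were higher, while 21.0% of all genes were called lower and 23.3% higher; leaving out the library labelled MIGA2-KO day 6 replicate 1 these were 23 and 5. The members' median log2 fold change was -0.56, against 0.02 over all genes. The 23 members lower in both lines, which share no library, make up 85.2% of the 27 lower in WT and 95.8% of the 24 lower in MIGA2-KO. Lmod1, Vasp, Des and Fhl1 were higher in both. The same overlap over all genes was not counted, so these shares cannot be called particular to the set. The summed level of all 38 went from 17263 ± 292 to 10086 ± 728 CPM.

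**Figure D3:**
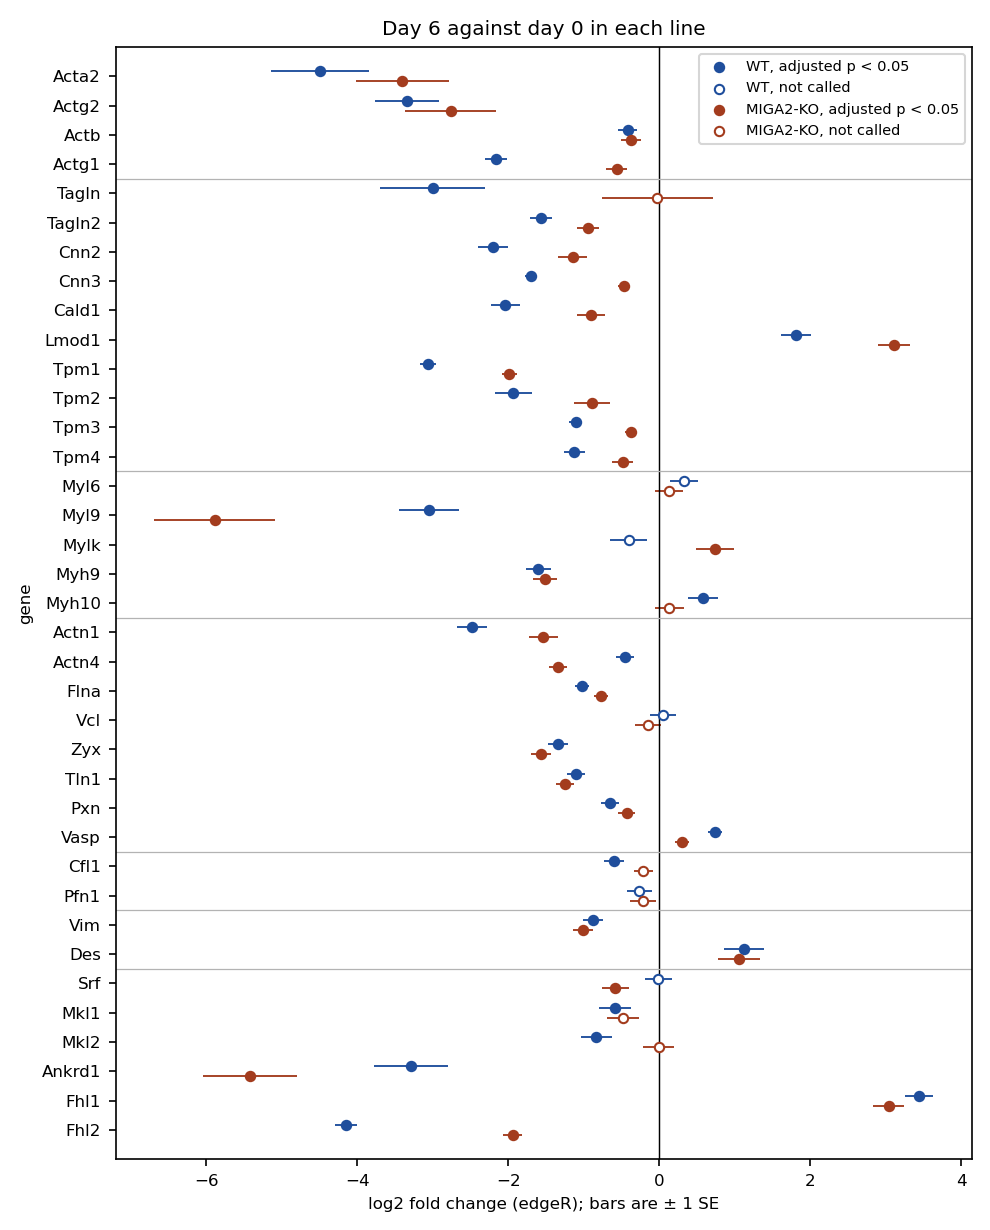
Log2 fold change from day 0 to day 6 for each tested member in WT (blue) and MIGA2-KO (brown), with bars of 1 SE; filled points passed an adjusted p of 0.05. For Actg1, Cnn3 and Fhl2 the MIGA2-KO point lies nearer to 0 than the WT point, and for Actn4 the reverse holds.

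Whether the time courses of the 2 lines differed was itself tested. It was higher in MIGA2-KO (less of a fall, or more of a rise) for 15 of the 37 tested members and lower for 2, against 13.7% and 13.6% of all genes; leaving out the library labelled MIGA2-KO day 6 replicate 1 these were 14 and 2. The counts were 10 and 2 with the replicate block, 9 and 1 without MIGA2-KO day 0 replicate 2, and 17 and 10 without the 3 libraries that stood apart. All 10 tested thin filament proteins were among the 15, although Tagln, Tagln2, Tpm2 and Tpm4 lost their calls under at least 1 alternative, with a median difference of 1.06 on the log2 scale, beside 0.02 over all genes. Cnn3 was at 339, 327 and 348 CPM in WT at day 0 and 107, 104 and 102 at day 6, and at 293, 286 and 286 and then 190, 218 and 219 in MIGA2-KO. Its changes were -1.70 ± 0.08 in WT and -0.46 ± 0.08 in MIGA2-KO, a difference of 1.23 ± 0.11 (adjusted p = 3.72e-06; 1.30 leaving out the library labelled MIGA2-KO day 6 replicate 1). For Tpm1 the difference was 1.07 ± 0.14 (1.14 without it), for Cald1 1.13 ± 0.26 (1.22) and for Cnn2 1.05 ± 0.27 (1.23). Cnn3, Tpm1, Cald1 and Cnn2 thus fell in both lines, and less in MIGA2-KO.

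Among the members whose difference passed the test, Tagln and Fhl2 had the largest values. Fhl2 was at 54.0, 48.1 and 50.8 CPM at day 0 and at 11.8, 13.5 and 14.5 at day 6 in MIGA2-KO, and the lines differed by 2.21 ± 0.19 (adjusted p = 1.67e-06; 2.29 leaving out the library labelled MIGA2-KO day 6 replicate 1). For Tagln the difference of 2.98 ± 1.02 (adjusted p = 0.0422) rested on that library, in which Tagln was at 6.87 CPM against 0.330 and 0.348 in the others; without it the difference was 0.13 (adjusted p = 0.94). The difference for Tagln2, 0.62 ± 0.20, was 0.41 and not called without it (adjusted p = 0.067). The cross-linkers Actn1 and Actn4 differed in opposite senses, by 0.94 ± 0.27 (adjusted p = 0.0182) and -0.89 ± 0.16 (adjusted p = 0.00107), and by 1.05 and -0.77 without that library. Fibroblast markers summed to more in MIGA2-KO than in WT at day 6 and adipocyte markers to less, by the ranges given above, and their part in these differences was not tested.

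At day 0, the start of differentiation, the lines already differed for some members. MIGA2-KO was higher than WT for 8 and lower for 8, against 16.1% and 17.7% of all genes. Of the 8 higher members, 5 are cross-linkers or adhesion proteins (Actn4, Flna, Vcl, Zyx and Tln1). Of the 8, 4 were called under every alternative run, and Flna, Zyx, Tln1 and Srf were not. Myh9 was at 1257, 1275 and 1261 CPM in MIGA2-KO and at 350, 566 and 453 in WT, a log2 fold change of 1.47 ± 0.16 (adjusted p = 2.24e-05). Cald1 was also higher, at 975, 977 and 966 CPM (0.70 ± 0.19, adjusted p = 0.0103), and so was Srf, at 45.3, 41.9 and 40.1 CPM against 32.5, 29.1 and 25.7 (0.54 ± 0.18, adjusted p = 0.0286). No library of MIGA2-KO overlapped one of WT for Myh9, Cald1 and Srf.

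The 8 members lower in MIGA2-KO at day 0 came from several roles. Tagln was at 2.41, 2.29 and 2.92 CPM in MIGA2-KO, below all 3 WT libraries (log2 fold change -2.59 ± 0.65, adjusted p = 0.00787). Actg2 was at 0.883, 1.38 and 1.95 CPM against 7.26, 6.44 and 4.89 (-2.14 ± 0.36, adjusted p = 5.89e-04), and Myl9 at 2.01, 2.52 and 2.03 CPM (-1.71 ± 0.34, adjusted p = 0.002). Acta2 was lower in all 3 libraries without passing the test (-0.74 ± 0.55, adjusted p = 0.319). Fhl2 (-0.94 ± 0.12), Tpm4 (-0.73 ± 0.14), Pfn1 (-0.73 ± 0.17), Cfl1 (-0.60 ± 0.13) and Cnn3 (-0.23 ± 0.08) were lower as well, and the call of Cnn3 was lost under some alternatives. Leaving out the 3 libraries that stood apart raised the count of higher members from 8 to 13.

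At day 6, 7 of the 10 tested thin filament proteins were higher in MIGA2-KO than in WT cells. Of the 37 tested members 17 were higher and 6 lower, against 29.2% and 31.5% of all genes, and leaving out the library labelled MIGA2-KO day 6 replicate 1 these were 18 and 10. With library totals as the only scaling they were 21 and 2; that scaling moves the median of all genes to 0.24 in this comparison, from -0.01. Cald1 was at 455, 550 and 551 CPM in MIGA2-KO, above the 3 WT libraries (log2 fold change 1.84 ± 0.19, adjusted p = 2.54e-06; 1.93 without that library). Actg1 (1.61 ± 0.15), Myh9 (1.56 ± 0.16), Actn1 (1.45 ± 0.20), Cnn2 (1.41 ± 0.19) and Fhl2 (1.27 ± 0.14) followed, at 1.78, 1.70, 1.56, 1.59 and 1.35 without it. Mkl2, at 37.8, 50.3 and 51.8 CPM against 28.4, 18.1 and 18.7, was higher by 1.10 ± 0.21 (adjusted p = 4.51e-04; 1.24 without it), while Srf did not differ beyond the spread (-0.03 ± 0.18; 0.03 without it).

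Acta2 and Tagln at day 6 depend on 1 library. The log2 fold change of Acta2 between MIGA2-KO and WT was 0.35 ± 0.61 (adjusted p = 0.631) with all libraries and -1.54 (adjusted p = 2.68e-04) leaving out the library labelled MIGA2-KO day 6 replicate 1. For Tagln it was 0.39 ± 0.79 (adjusted p = 0.687) and -2.46 (adjusted p = 0.00309). Tagln had 87 counts in MIGA2-KO at day 6, most of them in that library, at 6.87 CPM. The lowest library was at 0.330 CPM, so the value of -2.46 rests on few counts. In MIGA2-KO replicates 2 and 3, with Miga2 at 74.5 and 70.0 CPM, Acta2 and Tagln were thus below the 3 WT libraries. Des changed in the same way, from -0.49 with all libraries, where it was not called, to -0.93 (adjusted p = 0.00323). Myl9, at 0.0869, 0 and 0 CPM, was lower in MIGA2-KO at day 6: 1 count over the group against 27 in WT, a ratio of 30.0 with an exact 95% interval of 4.94 to 1228. Of the 6 members called lower (Myl6, Myl9, Actn4, Vasp, Pfn1 and Fhl1), only Myl9 was called lower under every alternative run.

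MIGA2-GFP cells at day 6 were compared with the same 3 WT libraries. Of the 37 members 12 were higher and 5 lower, against 16.5% and 18.9% of all genes; with library totals as the only scaling they were 18 and 3, with a median of all genes at 0.18 in place of 0.00. Without WT day 6 replicate 2 they were 5 and 2, and 4 of the 12 higher and 2 of the 5 lower members were called under every alternative run. Acta2 was at 74.6, 74.4 and 73.5 CPM, above the 12.6, 14.0 and 24.8 of WT and below every day 0 library (log2 fold change 2.12 ± 0.60, adjusted p = 0.0151), a call lost without WT day 6 replicate 2. Lmod1 was higher by 2.22 ± 0.18 (adjusted p = 3.83e-06), Myh9 by 0.85 ± 0.16 (adjusted p = 0.00136) and Des by 0.81 ± 0.26 (54.1, 51.8 and 48.0 CPM, adjusted p = 0.0278), and the call of Des was lost under some alternatives. Cfl1 (-0.51 ± 0.13), Pfn1 (-0.78 ± 0.17), Vim (-0.47 ± 0.13) and Actn4 (-0.31 ± 0.12) were lower, and the calls of Vim and Actn4 were lost under some alternatives. Ankrd1 had 0 counts over the 3 MIGA2-GFP libraries and 4 over those of WT. The 95% counting ranges, 0 to 3.69 and 1.09 to 10.2 counts, overlapped, so no size is given for its fall. Its call as lower was lost under some alternatives.

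**Figure D4:**
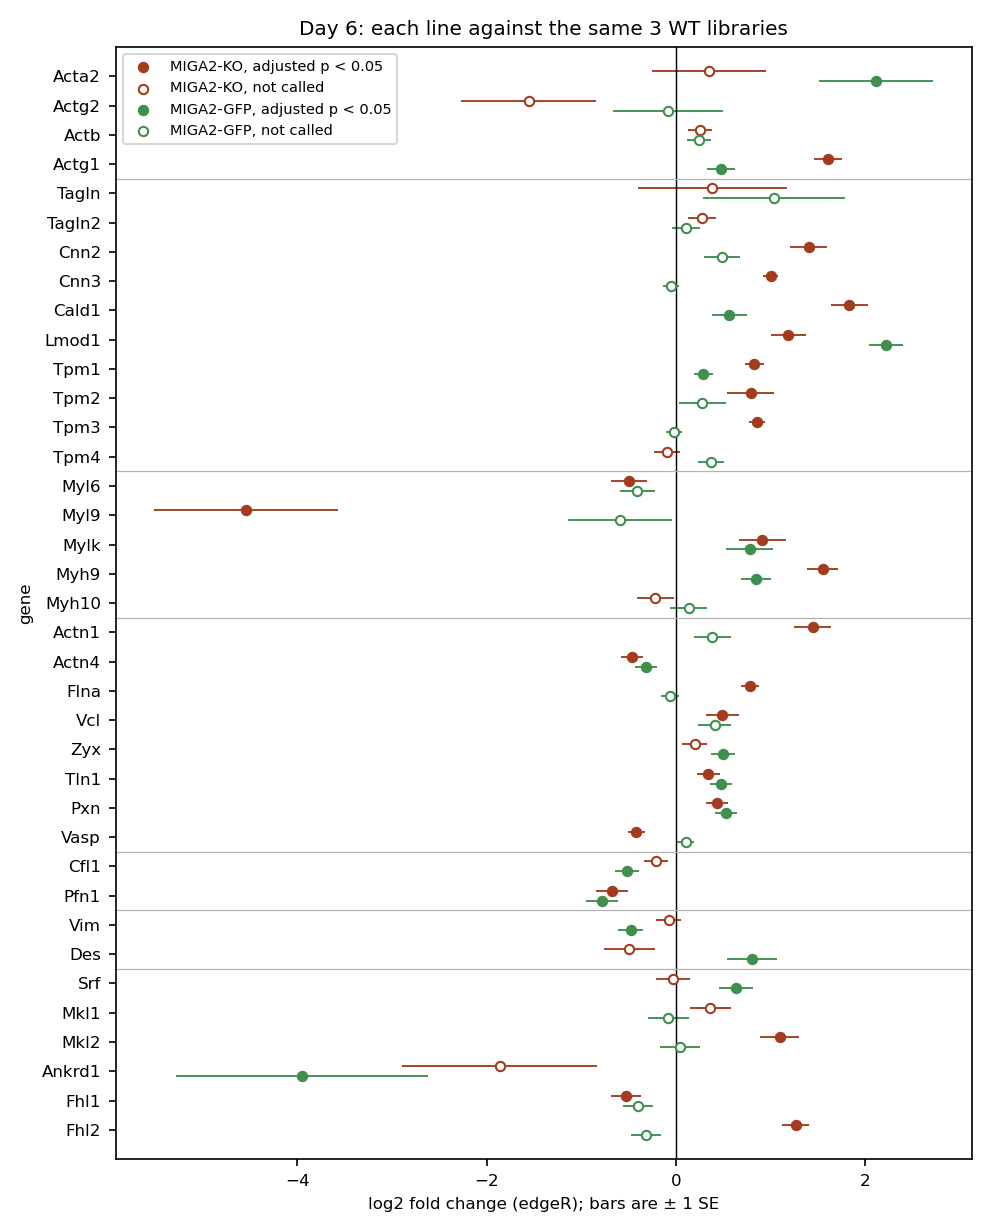
Log2 fold change at day 6 of MIGA2-KO (brown) and MIGA2-GFP (green) against the same 3 WT libraries for each tested member, with bars of 1 SE; filled points passed an adjusted p of 0.05. Lmod1 is higher in both, Cald1, Actg1 and Cnn2 lie farther to the right in MIGA2-KO, and Acta2 lies farther to the right in MIGA2-GFP.

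The comparisons of MIGA2-KO and MIGA2-GFP with WT share their WT libraries, so their values are only set side by side. For Actg1 these were 1.61 and 0.48 on the log2 scale, for Tpm1 0.83 and 0.29, for Mylk 0.91 and 0.78, for Pxn 0.44 and 0.53, and for Pfn1 -0.67 and -0.78. Actg1, Tpm1, Mylk, Pxn and Pfn1 were each called in the same direction in both comparisons. Of the 17 members higher in MIGA2-KO, 8 (47.1%) were also higher in MIGA2-GFP, and of the 6 lower 2 (33.3%) were also lower. The same overlap over all genes was not counted. The MIGA2-GFP calls of Actg1, Tpm1 and Mylk were lost under some alternatives. MIGA2-KO and MIGA2-GFP were also tested against each other. MIGA2-GFP against MIGA2-KO at day 6 gave 7 higher and 12 lower members, against 25.4% and 22.5% of all genes, and 9 and 14 leaving out the library labelled MIGA2-KO day 6 replicate 1. The lower members included Cald1 (-1.27 ± 0.19), Actg1 (-1.13 ± 0.14), Actn1 (-1.06 ± 0.19), Cnn3 (-1.05 ± 0.08) and Fhl2 (-1.58 ± 0.15), at -1.38, -1.32, -1.19, -1.14 and -1.69 without that library. Acta2 (1.76 ± 0.59; 3.64 without that library), Des (1.30 ± 0.27; 1.72) and Lmod1 (1.03 ± 0.17; 1.07) were higher. In Tpm4, MIGA2-GFP was at 203, 194 and 197 CPM and MIGA2-KO at 188, 118 and 124 (0.47 ± 0.14, and 0.69 without that library). Of the 7 higher members 3 were called under every alternative run, and Acta2, Tpm4, Vasp and Srf were not. Of the 12 lower members 11 were, and Vim was not.

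Levels within a family were compared per length, as shares of the summed CPM per kilobase of exon. Actb made up 70.6% ± 1.3 (SD, n = 3) of the 4 actins in WT at day 0 and 93.6% ± 1.4 at day 6, while Acta2 went from 16.2% ± 0.88 to 1.28% ± 0.44. In MIGA2-KO the share of Actb went from 78.4% to 86.8%, with its 3 day 6 libraries at 86.2% to 87.5%. Among the tropomyosins Tpm1 went from 21.7% ± 0.25 to 6.97% ± 0.50 in WT and Tpm4 from 61.1% to 74.9%. Actn1 was 56.5% ± 6.1 of the alpha-actinins in WT at day 0 and 24.7% ± 7.6 at day 6. In MIGA2-KO it was 58.3% ± 0.34 and 55.1% ± 0.40, with the library labelled MIGA2-KO day 6 replicate 1 inside a range of 54.7% to 55.5%, and in MIGA2-GFP at day 6 34.7% ± 0.82. Myh9 went from 81.8% to 49.6% of Myh9 and Myh10 together in WT and from 91.3% to 76.7% (74.4% to 79.1% over its libraries) in MIGA2-KO. The shares are values from 3 libraries a group with no test.

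**Figure D5:**
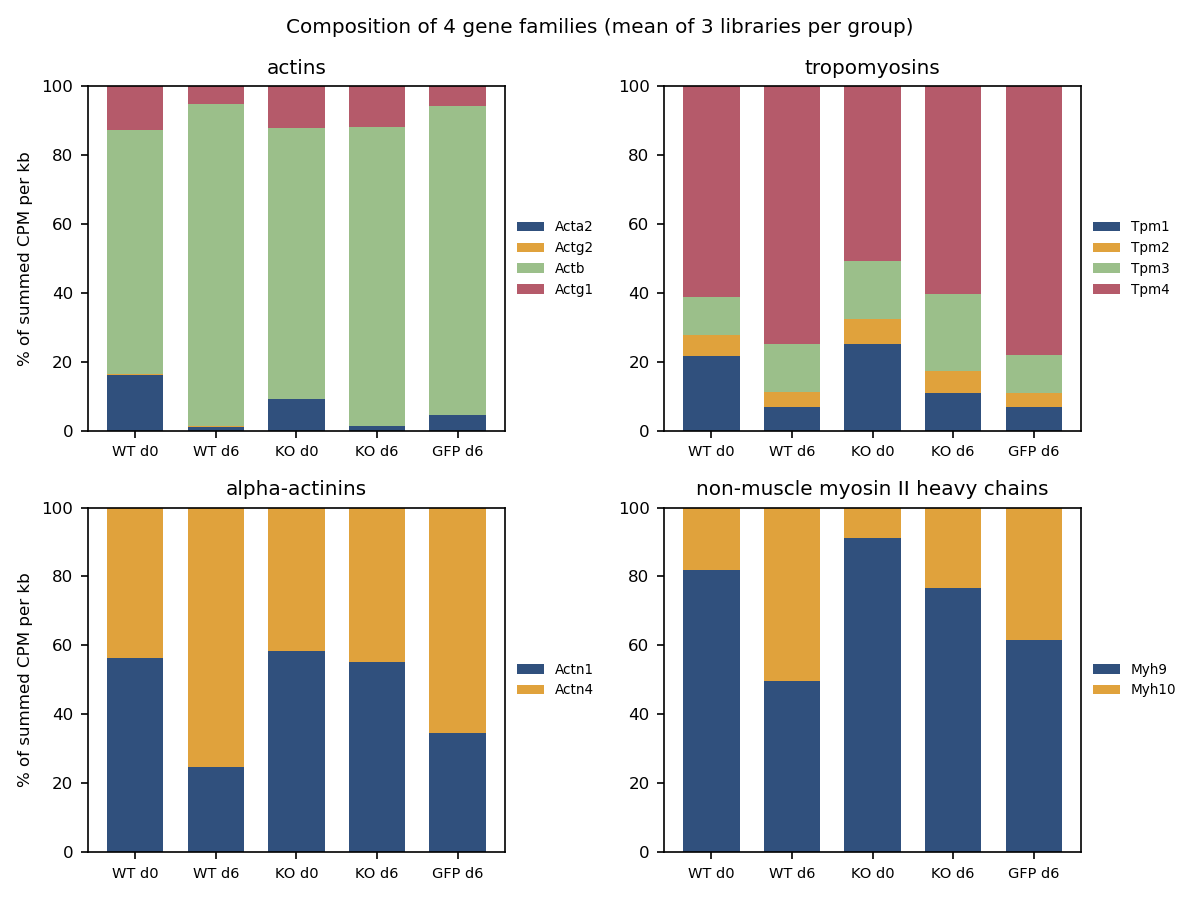
Stacked bars of the share (%) each gene holds of its family's summed CPM per kilobase in the 5 groups (means of 3 libraries; d0 and d6 are day 0 and day 6). Acta2 holds 16.2% of the actins in WT at day 0 and 1.28% at day 6. At day 6 it holds 1.29% in MIGA2-KO (0.303% to 3.2% over its libraries) and 4.49% in MIGA2-GFP. Actn1 keeps its share of the alpha-actinins in MIGA2-KO (58.3% and 55.1%) but not in WT (56.5% and 24.7%).

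Genes of the same pathways were counted next, from 7 lists that hold no member; over all genes 33.1% were called lower and 31.7% higher in WT over time, and 21.0% and 23.3% in MIGA2-KO. A second value for MIGA2-KO, in brackets, leaves out the library labelled MIGA2-KO day 6 replicate 1. Among 17 other SRF and MRTF targets 15 were lower and 0 higher in WT at day 6 (median log2 fold change -1.67, against -0.04 over all genes), and 10 were lower in MIGA2-KO (11). They included Tes, a LIM protein of focal adhesions (-1.66 ± 0.12 in WT), Tgfb1i1, the paxillin relative Hic-5 (-1.67 ± 0.16), and Ccn1, a matrix protein (91.2 ± 1.60 to 29.8 ± 1.40 CPM). The list for YAP and TEAD, the other pathway that reads stress fibres, shares Ccn1 and Ccn2 with that list. It holds targets and also the factor genes Yap1, Wwtr1, Tead1 and Tead4. Of its 14 genes 11 were lower in WT and 12 in MIGA2-KO (10). Ajuba, a LIM protein of cell junctions, changed by -1.84 ± 0.14, while the factor gene Tead4 rose by 2.08 ± 0.21 (5.36 ± 0.396 to 22.7 ± 3.41 CPM).

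Of 17 genes of the Arp2/3 complex and its promoters, which nucleate branched filaments, 2 were higher (Arpc5l among them, 1.15 ± 0.17) and 8 lower (Arpc2 at -0.66 ± 0.10 and Cyfip1 at -0.88 ± 0.13), beside 31.7% and 33.1% of all genes. Of 18 tested capping, severing and monomer-binding genes 11 were lower and 1 higher; Tmsb10, thymosin beta 10, which holds free actin, changed by -2.57 ± 0.16, Cap1 by -1.04 ± 0.08 and Wdr1 by -0.67 ± 0.08.

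Of 19 focal adhesion genes beyond the members 13 were lower and 4 higher in WT, against 33.1% and 31.7% of all genes, and 8 and 2 in MIGA2-KO (7 and 2). Itgav, the integrin alpha-V chain, went from 268 ± 89.7 to 44.5 ± 8.72 CPM in WT (-2.59 ± 0.21) and from 338 ± 3.56 to 176 ± 13.9 in MIGA2-KO (-0.94 ± 0.20; -0.88 without that library). Lims2, the adhesion adaptor PINCH-2, rose from 1.01 ± 0.437 to 34.0 ± 2.92 CPM in WT (5.09 ± 0.22), and Tns1, tensin 1, by 1.93 ± 0.17. Of 10 tested tubulins, the subunits of microtubules, 5 were higher and 5 lower in WT. Tuba4a, Tuba1a and Tubb5 changed by -2.30 ± 0.13, -1.52 ± 0.13 and -1.14 ± 0.12. The 5 that rose, named here after their values were seen, were Tubb4b (1.22 ± 0.15), Tuba1c, Tuba1b, Tubb2a and Tubg1, the other 4 by 0.41 to 0.55. Of 11 tested septin, plectin and lamina genes 3 were higher and 6 lower in WT, against 31.7% and 33.1% of all genes. Sun2, which ties the nucleus to the cytoskeleton, was among the higher (1.76 ± 0.10), and Sept11 (-1.79 ± 0.19) and Lmnb1 (-1.58 ± 0.21) were among the lower.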

How the data were processed

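Total RNA of 15 3T3-L1 libraries was made into stranded TruSeq libraries, per the labels' protocols. Per the submitters' processing notes, the tools were bcl2fastq 2.19, Trimmomatic, STAR 2.5.4b, featureCounts and edgeR, with the genome build GRCm38.p5. The authors deposited raw counts of reads per gene, 1 file per library. The annotation release, the strand setting and the handling of multi-mapping reads are not stated there or in the labels. Identifiers were matched to GENCODE (25664 of 25700).

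Counts were tested in edgeR 4.0.16 (R 4.3.3): filterByExpr (minimum count 10, minimum total 15), TMM scaling, and a quasi-likelihood fit of all 15 libraries with 1 term per group. Tests were two-sided and adjusted by Benjamini-Hochberg over 12279 genes (threshold 0.05). The SE is the absolute log2 fold change over the square root of F. CPM are TMM-scaled, and levels per kilobase use the union of exons. The fit was tested on simulated data. All 38 members are named, with up to 3 genes per pathway list, those with the smallest adjusted p in WT over time. Members and lists were chosen with earlier results of these data known. Replicates were not within sampling noise of each other (chi-square per degree of freedom 1.71 to 124.8). DESeq2 1.42.0, other scalings and filters, GC and length offsets, a replicate block and leaving out libraries were alternatives. The common biological coefficient of variation was 15.96%. 1 pathway list is not reported here.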

Additional observations from a re-analysis of the deposited data

Results flagged for a closer look

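The change over time differed between MIGA2-KO and WT for 17 members by the test of the difference itself (edgeR quasi-likelihood, adjusted over all genes), and these are listed as MIGA2-KO minus WT on the log2 scale. Among the actins the difference was 1.60 for Actg1. The thin filament proteins had 2.98 for Tagln, 0.62 for Tagln2, 1.05 for Cnn2, 1.23 for Cnn3, 1.13 for Cald1 and 1.30 for Lmod1. The tropomyosins had 1.07 for Tpm1, 1.04 for Tpm2, 0.73 for Tpm3 and 0.64 for Tpm4. It was 1.15 for Mylk, 0.94 for Actn1, -0.89 for Actn4 and -0.44 for Vasp. Of the SRF group, Mkl2 had 0.82 and Fhl2 2.21. Tagln and Tagln2 were not called after leaving out the library labelled MIGA2-KO day 6 replicate 1 (0.13 and 0.41). Tpm2, Tpm4, Mylk, Mkl2 and Vasp also lost their calls under at least 1 alternative, so that 9 of the 15 higher and 1 of the 2 lower differences were called under every one run.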

How the results depend on the processing

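The labels give the groups shared replicate numbers, but the numbers did not pair the samples. Same-numbered deviations correlated at -0.72 to 0.12, with 2 of 30 over 0.1. Between WT day 0 and WT day 6, differently numbered libraries correlated at -0.41 to 0.72, the highest being WT day 0 replicate 3 with WT day 6 replicate 1. The fit of 1 term per group does not model such a shared spread. Counts of members called were 27 lower and 5 higher in WT over time, and they ran from 26 to 28 lower when 1 library was left out. With the replicate block, the counts over time stayed at 27 and 5 in WT and 24 and 5 in MIGA2-KO, and the difference between the lines was called higher for 10 members in place of 15; with the block and GC and length offsets together, 3 members were lower in MIGA2-KO at day 6 and 4 had a lower difference. Library totals as the only scaling moved the median of all genes to -0.43 in WT over time and -0.15 between the lines at day 0; it gave 2 members lower in MIGA2-KO against WT at day 6 (6 in the main analysis), 3 lower in MIGA2-GFP against WT (5) and 1 with a lower difference (2). GC and length offsets gave 3 lower in MIGA2-KO at day 6 and 4 with a lower difference. With no filter, 3 members were lower in MIGA2-GFP against WT and 1 had a lower difference, and with only the groups compared in the fit 3 were lower in MIGA2-GFP. Without the 3 libraries that stood apart, 13 members were higher in MIGA2-KO at day 0 (8), 12 lower in MIGA2-KO at day 6, 19 higher in MIGA2-GFP against WT (12), 11 higher in MIGA2-GFP against MIGA2-KO (7) and 10 had a lower difference. Leaving out 1 library at a time gave 3 to 5 members higher in MIGA2-KO over time (3 without MIGA2-KO day 0 replicate 3), 5 to 10 lower in MIGA2-KO against WT at day 6 (10 leaving out the library labelled MIGA2-KO day 6 replicate 1), 5 to 11 higher (5 without WT day 6 replicate 2, 6 and 7 without MIGA2-GFP replicates 1 and 3) and 2 to 5 lower in MIGA2-GFP against WT (2 without WT day 6 replicate 2, and 3 without WT day 6 replicate 3 or any 1 MIGA2-GFP library), and, for the difference, 9 to 15 higher (9 without MIGA2-KO day 0 replicate 2) and 1 to 4 lower (4 without WT day 0 or day 6 replicate 1, and 1 without WT day 0 or day 6 replicate 3 or MIGA2-KO day 0 replicate 1 or 2). The sign of Acta2 in MIGA2-KO against WT at day 6 turned when 1 library was left out: Acta2 ran from -1.54 to 0.826 and Tagln from -2.46 to 0.926, both lowest after leaving out the library labelled MIGA2-KO day 6 replicate 1, and they were at -1.71 and -2.85 without the 3 libraries. Without the 3 libraries the difference turned to -1.14 for Acta2, -0.48 for Tagln, -0.34 for Pfn1 and 0.26 for Vcl, and Vcl in WT over time to -0.33. With GC and length offsets Tln1 turned to -0.0262 and Vasp to 0.0213 in MIGA2-KO at day 6, and with the block added to -0.0258 and 0.0213. The causes were not tested. Of the 27 members lower in WT, 25 were called under every alternative run (Actb and Mkl1 were not), and of the 24 lower in MIGA2-KO 21 were (Actb, Tpm4 and Srf were not). Of the 17 higher in MIGA2-KO at day 6, 14 were (Tpm2, Vcl and Tln1 were not), but in MIGA2-GFP against WT only 4 of 12 higher. Of the 5 higher in MIGA2-KO over time, 3 were (Mylk and Vasp were not), and at day 0 4 of 8 higher (Flna, Zyx, Tln1 and Srf were not) and 7 of 8 lower (Cnn3 was not). Depth limits Cnn1, Actg2, Myl9 and Ankrd1, with 27 counts or fewer in each day 6 group.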
